A study of Mus musculus with 2 samples.

Results

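The genes described here encode 8 receptors for the transmitters of the autonomic nervous system, together with the kinase that switches such receptors off. They were chosen by name, with earlier results of these data known. They are Adrb1 and Adrb3 (beta-adrenergic), Adra1a, Adra1b and Adra2a (alpha-adrenergic), Chrm1, Chrm2 and Chrm3 (muscarinic acetylcholine receptors) and Grk2. All 9 were found among the 43346 gene rows of both libraries, with 32 transcripts. The list does not cover every gene of these receptor families. The libraries are polyadenylated RNA longer than 200 nt from whole lung of C57BL/6J mice, adults of 8 weeks, littermates of both sexes pooled, sequenced as stranded paired reads of 76 nt. No treatment or genetic change is given, and health state is recorded as unknown. The study holds 1 group of 2 libraries, labelled biological replicates 1 and 2, which share a donor record and come from separate tissue samples. How many animals each holds is not given, so the spread between them may be technical in part, and no test between groups is possible.

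Adrenaline and noradrenaline act on adrenergic receptors. Beta receptors couple to the stimulatory G protein and raise cyclic AMP, Adra1a and Adra1b products couple to Gq and release calcium, and the Adra2a product couples to Gi and lowers cyclic AMP. Acetylcholine from vagal nerves acts on muscarinic receptors, of which the Chrm1 and Chrm3 products couple to Gq and the Chrm2 product to Gi. In the lung, muscarinic signalling contracts airway smooth muscle and drives gland secretion, whereas beta signalling relaxes airways and speeds the clearance of alveolar fluid. Grk2 phosphorylates receptors that have bound their ligand, after which arrestins bind and signalling stops.

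Library depth over gene rows was 48234758 counts for replicate 1 and 44182823 counts for replicate 2. The tissue identity was as labelled, since all 5 alveolar type 1 and all 5 alveolar type 2 markers were above 1 TPM (transcripts per 1000000 transcripts, a level per transcript length) in both libraries. Markers of several other cell types and tissues differed between the libraries. Those with a mean count of 50 or more were compared. For airway and squamous basal epithelium, 5 of 5 were at least 2-fold higher in replicate 1. So were 7 of 7 for skeletal muscle and 4 of 5 for brown adipocytes. The difference in the epithelium list was far above 2-fold, with summed levels of 3398 TPM in replicate 1 and 2.1 TPM in replicate 2. Most of the replicate 1 sum came from Krt13 (1725 and 0.24 TPM) and Krt4 (1536 and 0.24 TPM). For white adipocytes 4 of 6 and for acinar cells 3 of 5 were at least 2-fold higher in replicate 2. Differences below are ratios of counts after TMM scaling of the library sizes, with exact Clopper-Pearson 95% intervals that cover counting error only. A 2-fold difference was read only where the mean count reached 50, which all 9 genes did. Values of the form mean ± SD are over n = 2 libraries. In bulk tissue, fewer cells of a type and less RNA per cell cannot be told apart.

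The levels fell into a high and a low class. Adrb1, Grk2 and Adrb3 stood near 100 TPM, with means of 107 ± 32.5, 104 ± 3.08 and 84.6 ± 30.2 TPM, above 94.5%, 94.3% and 92.7% of protein coding genes. Adra1a followed at 10.4 ± 3.39 TPM, Adra1b at 5.09 ± 0.707, Chrm2 at 3.17 ± 1.07, Chrm3 at 1.64 ± 0.00707, Adra2a at 1.33 ± 0.0424 and Chrm1 at 1.17 ± 0.552 TPM. The step from Adrb3 to Adra1a was the widest between neighbours in this order, 4.93-fold in replicate 1 and 13.2-fold in replicate 2. The libraries overlapped for Adrb1 and Grk2, for Grk2 and Adrb3, and for Adra2a and Chrm1, so the order within these pairs does not exceed the spread. The other neighbours did not overlap, although Chrm3 and Adra2a were only 1.21-fold and 1.25-fold apart. Their deposited intervals overlapped in both libraries, and those of Chrm2 and Chrm3 overlapped in replicate 2. In all, 8 of 9 genes reached 1 TPM in both libraries, against 60.5% of protein coding genes and 32% of all gene rows. Because the 9 were chosen with earlier results of these data known, no conclusion is drawn from that contrast. Among 5 genes of the same receptor families left out of the 9, 1 was above 1 TPM in both libraries. Chrm1 missed 1 TPM in replicate 1 only.

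**Figure D1:**
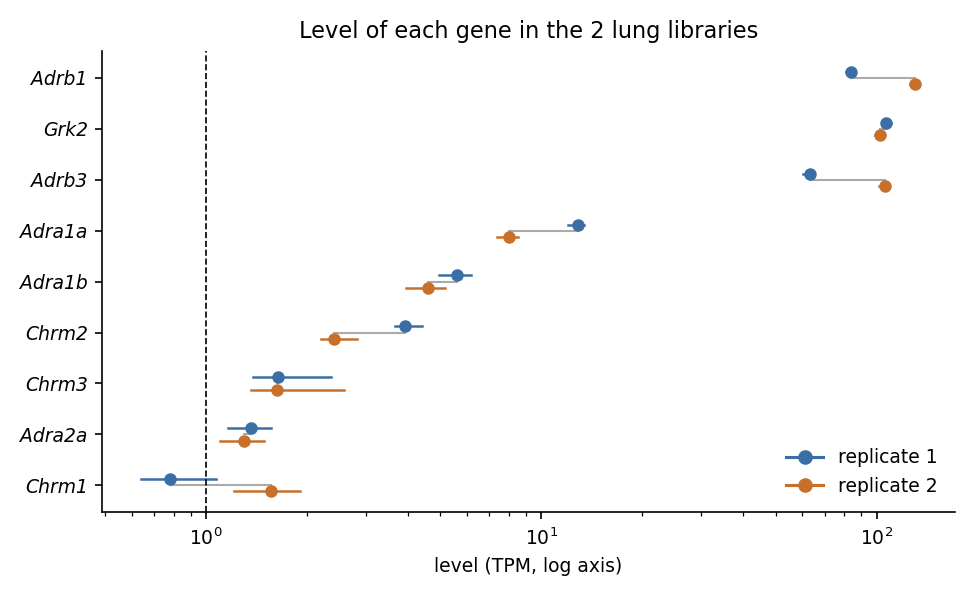
Level of each gene in TPM (log axis) in replicate 1 (blue) and replicate 2 (orange), with the authors' deposited interval as a horizontal bar and 1 TPM as a dashed line. Adrb1, Grk2 and Adrb3 lie near 100 TPM, Adra1a lies near 10, and Chrm1 falls on both sides of the line.

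Adrb1, whose product is best known for raising the rate and force of the heartbeat, had 84.0 TPM in replicate 1 and 130.0 TPM in replicate 2. Its counts were 6925 and 10462, a 1.81-fold higher level in replicate 2 (1.76 to 1.87). Adrb3, known for driving fat breakdown and heat production in adipocytes, had 63.2 and 106 TPM, with counts of 3205 and 4875. It was 1.82-fold higher in replicate 2 (1.74 to 1.91). Both beta receptor genes were thus higher in replicate 2 by nearly the same factor, and each stayed under 2-fold. The ratio of Adrb1 to Adrb3 in TPM was 1.33 in replicate 1 and 1.23 in replicate 2. Among the 14708 genes that reached this count minimum, 9.23% differed by more than Adrb1 and 9.06% by more than Adrb3, in either direction. The 2 beta genes together made up 84.9% and 92.4% of the summed TPM of the 8 receptor genes.

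In TPM, the brown and most of the white adipocyte markers moved in opposite directions between the libraries, and Adrb3 is an adipocyte receptor. The 6 brown adipocyte markers summed to 306 TPM in replicate 1 and 53.2 TPM in replicate 2, with the uncoupling protein gene Ucp1 at 158 and 1.94 TPM. Cox8b made up 93.7 and 43.5 TPM of these sums, so most of the replicate 2 sum came from this gene. The 6 white adipocyte markers summed to 112 and 264 TPM, with the adiponectin gene Adipoq at 17.1 and 53.0 TPM. Although 4 of these 6 were at least 2-fold higher in replicate 2, Pparg was not, at 11.8 and 10.5 TPM. No marker of either list was at 0 in both libraries. The white adipocyte marker of highest level, the lipid droplet gene Cidec, had 50.4 and 124 TPM, below Adrb3 in replicate 1 and above it in replicate 2. Ucp1 was above Adrb3 in replicate 1 and below it in replicate 2. The part of either fat type in the level or the difference of Adrb3 was not tested. Alveolar type 1, alveolar type 2, fibroblast and endothelial lists had no member 2-fold apart in scaled counts. Their summed TPM were 4269 and 4346, 29186 and 30433, 3083 and 3171, and 3381 and 3436. Single members of the alveolar lists moved in both directions beneath these sums. In scaled counts Aqp5 was 1.76-fold and Sftpb 1.63-fold higher in replicate 2. Pdpn was 1.75-fold higher in replicate 1, with 39.7 and 19.4 TPM.

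**Figure D2:**
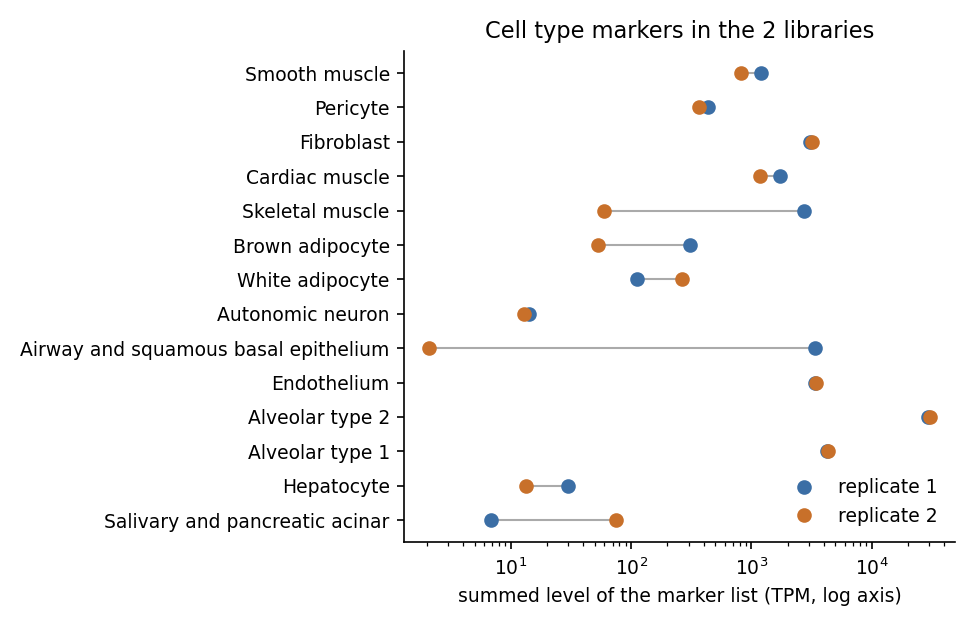
Summed TPM (log axis) of 14 marker lists in replicate 1 (blue) and replicate 2 (orange). Alveolar, fibroblast and endothelial sums nearly coincide. Airway and squamous basal epithelium, skeletal muscle, brown adipocyte, white adipocyte and acinar sums are apart.

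Adrb1 lies on chromosome 19 (mm10, 56722199 to 56733113, plus strand) and was quantified as a single transcript of 2491 nt. Its coding sequence of 1398 nt sits in 1 exon. Adra2a, on the same chromosome (54044151 to 54048982, plus strand), is built the same way, with 1 quantified transcript and 1395 coding nt in 1 exon. Adrb1 stood 61.8-fold above Adra2a in replicate 1 and 100-fold in replicate 2 in TPM. The 250 bases before the RefSeq start site are printed for this pair because their transcripts are alike in structure and their levels lie far apart, near opposite ends of the order (GRCm38.p6, chr19:56721867-56722116 and chr19:54045009-54045258, both plus strand). Capitals mark matches on either strand, none of which overlap. The motifs searched were the GC box, spelled GGGCGG, and the CCAAT box, spelled as named. The TATA box core was searched as TATAAA and the cyclic AMP response element as TGACGTCA.
Adrb1: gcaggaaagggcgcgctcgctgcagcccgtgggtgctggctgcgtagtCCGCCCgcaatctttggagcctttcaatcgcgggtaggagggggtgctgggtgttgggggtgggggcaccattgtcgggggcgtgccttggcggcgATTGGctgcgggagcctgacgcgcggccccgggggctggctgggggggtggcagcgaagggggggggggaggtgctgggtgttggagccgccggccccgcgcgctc
Adra2a: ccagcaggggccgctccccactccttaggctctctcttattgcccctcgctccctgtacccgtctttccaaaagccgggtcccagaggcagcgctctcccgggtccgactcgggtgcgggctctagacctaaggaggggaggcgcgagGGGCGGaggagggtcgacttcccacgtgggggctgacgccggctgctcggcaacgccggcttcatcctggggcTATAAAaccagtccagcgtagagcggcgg
Both windows are rich in G and C, at 74.0% and 67.6% against a median of 52.4% over 32851 mouse promoters. They held 24 and 22 CpG pairs, against a median of 6. The Adra2a window lies inside the longer GENCODE M21 model of Adra2a-201 and ends at the start of Adra2a-202, which has no row in the transcript tables used here. Each window had 1 GC box match, a motif found in 32.7% of promoters. Adra2a had a TATA box core 29 bases before its start, found in 12.4% of promoters, and Adrb1 had a CCAAT match, found in 33.8%. Neither held TGACGTCA, which 1.55% of promoters hold. These are letter matches and not measured binding.

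Adrb3 (chromosome 8, 27225776 to 27250616, minus strand) gave 3 transcripts with 2 different coding ends. Adrb3-202 held 61.3% of the gene's TPM in replicate 1 and 72.4% in replicate 2, Adrb3-203 held 30.9% and 24.2%, and Adrb3-201 held 7.82% and 3.46%. All share the first 1163 coding bases. Adrb3-203 and Adrb3-201 have the same coding sequence. The ends are printed because they set the last amino acids of the receptor, with the final 15 shared bases in lower case and each transcript's own bases, stop codon included, in capitals (GENCODE transcripts, mm10 minus strand, chr8:27226845-27226896 for Adrb3-202 and chr8:27226754-27226793 for Adrb3-203).
Adrb3-202: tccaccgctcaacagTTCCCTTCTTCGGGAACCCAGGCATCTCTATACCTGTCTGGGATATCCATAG
Adrb3-203: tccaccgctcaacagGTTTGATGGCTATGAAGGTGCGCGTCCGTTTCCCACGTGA
The end of Adrb3-202 carried 38.8 TPM in replicate 1 and 76.7 TPM in replicate 2. The other end, summed over Adrb3-203 and Adrb3-201, carried 24.4 and 29.3 TPM. In TPM, most of the difference in Adrb3 between the libraries lay in Adrb3-202. In expected counts, which are not divided by length, the ends had 1578 and 1627 in replicate 1 and 3046 and 1830 in replicate 2. The TPM share of the Adrb3-202 end, 66.8% ± 7.79, was above the share of the other end, 33.2% ± 7.79, in both libraries. The Adrb3-202 model is shorter (1336 nt) than Adrb3-203 (1864 nt) and Adrb3-201 (2795 nt), which raises its TPM per count. Which end led in replicate 1 therefore depends on the measure.

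The 3 alpha receptor genes were lower than the beta genes in both libraries. Adra1d, an alpha receptor gene outside the 9, was 1.58-fold higher in replicate 2 (1.36 to 1.83), the direction of the beta genes. Adra1a, a receptor of heart and vascular smooth muscle (chromosome 14, 66635251 to 66771168, plus strand), had 12.8 TPM in replicate 1 and 8.03 TPM in replicate 2. Its counts were 1594 and 932, a 1.43-fold higher level in replicate 1 (1.32 to 1.55). Adra1b (chromosome 11, 43774606 to 43901210, minus strand), which is also abundant in liver, had 5.59 and 4.59 TPM on 391 and 359 counts. Its ratio of replicate 2 over replicate 1 was 1.10 (0.951 to 1.27), so no difference was detectable at this depth. Adra2a, which acts on nerve endings to limit noradrenaline release and on platelets and fat cells, had 1.36 and 1.30 TPM on 177 and 165 counts. Its ratio was 1.12 (0.898 to 1.39), which likewise includes 1. The beta genes outweighed the 3 alpha genes in TPM by 7.44-fold in replicate 1 and 17.0-fold in replicate 2.

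The transcript of Adra1a with the largest share of TPM differed between the libraries. Adra1a-203 held 52.7% and 40.7% of the gene's TPM, and Adra1a-205 held 33.2% and 43.8%. The retained-intron transcript Adra1a-204 held 7.91% and 9.25%, and Adra1a-202 held 6.20% and 6.22%. The pair of leading transcripts differs at the end of the coding sequence after 1269 shared bases. These ends are shown in the same way as those of Adrb3 (mm10 plus strand, chr14:66731564-66731578 for Adra1a-203 and chr14:66727832-66727963 for Adra1a-205).
Adra1a-203: tgtaccacagcccggGGCTTTTATCCATGA
Adra1a-205: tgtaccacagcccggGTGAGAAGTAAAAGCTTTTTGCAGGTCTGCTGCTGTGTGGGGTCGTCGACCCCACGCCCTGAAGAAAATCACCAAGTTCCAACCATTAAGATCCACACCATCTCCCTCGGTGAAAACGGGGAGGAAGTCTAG
Adra1a-203 ends 15 bases after the point of divergence, and Adra1a-205 runs on for 132 bases to its stop. In TPM, Adra1a-203 had 6.76 in replicate 1 and 3.27 in replicate 2, while Adra1a-205 had 4.26 and 3.51. The deposited intervals of these transcripts did not overlap in replicate 1 (5.91 to 7.34 against 3.19 to 5.09 TPM). They overlapped in replicate 2 (2.62 to 3.73 against 2.67 to 4.15 TPM), so which transcript led in replicate 2 lies within those intervals. By share of expected counts Adra1a-203 led in both. Adra1a-202 shares its coding sequence with Adra1a-205. The long coding end, summed over its transcripts, had 39.4% and 50.01% of TPM.

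The quantified Adra1b transcripts have 2 annotated starts. Their shares come from the authors' division of 391 and 359 counts among overlapping models, with no measurement of the start sites. Transcripts from the upstream start (position 43901210), all of it Adra1b-203, held 70.3% of the gene's TPM in replicate 1 and 48.1% in replicate 2. Those from the downstream start (position 43836332), Adra1b-202 and Adra1b-204, held 29.7% and 51.9%. In expected counts, the upstream start had 221 and 121, and the downstream start had 170 and 238. Adra1b-202 and Adra1b-204 have the same length of 3047 nt and the same exons and received equal counts, so only their sum has a meaning. The deposited intervals of Adra1b-202 and Adra1b-204 reached from near 0 to 1.66 and 1.59 TPM in replicate 1, and to 1.98 and 2.55 TPM in replicate 2, where that of Adra1b-204 began at 0.281 TPM. The interval of Adra1b-203 was 3.11 to 4.62 TPM in replicate 1 and 1.28 to 3.02 TPM in replicate 2, so the libraries did not overlap for it. The annotated 3' end of Adra1b-203 lies inside the coding sequence and its transcript is short (1764 nt), which raises its TPM per count. The 250 bases before the RefSeq start sites nearest to these starts are printed because each lies before one of the 2 transcript groups. They lie on the minus strand at chr11:43901238-43901487 (upstream) and chr11:43836490-43836739 (downstream) of GRCm38.p6, with capitals as for Adrb1.
Adra1b upstream: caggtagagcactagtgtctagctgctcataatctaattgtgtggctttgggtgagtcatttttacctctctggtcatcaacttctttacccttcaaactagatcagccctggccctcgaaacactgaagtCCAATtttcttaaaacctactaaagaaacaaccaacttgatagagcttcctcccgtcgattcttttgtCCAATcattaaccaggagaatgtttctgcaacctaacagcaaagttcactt
Adra1b downstream: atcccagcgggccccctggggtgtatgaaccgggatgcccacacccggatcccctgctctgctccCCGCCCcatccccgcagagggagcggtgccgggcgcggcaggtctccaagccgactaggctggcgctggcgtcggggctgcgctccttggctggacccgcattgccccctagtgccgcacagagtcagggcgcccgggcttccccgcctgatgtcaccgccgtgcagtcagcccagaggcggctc
The windows differ in composition. The upstream one had 41.6% G and C, 3 CpG pairs and 2 CCAAT matches, and 14.9% of promoters were lower in G and C. The downstream one had 72.8% G and C, 22 CpG pairs and 1 GC box match, and 94.0% of promoters were lower. The RefSeq sites lie 27 bases and 157 bases from the starts of the quantified transcripts.

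Muscarinic receptor genes were the lowest family as a whole, with 6.35 TPM in replicate 1 and 5.60 TPM in replicate 2 over the 3 genes. Chrm2, which slows the heart and limits acetylcholine release from vagal endings (chromosome 6, 36388084 to 36528414, plus strand), had 3.93 and 2.41 TPM. Its counts were 775 and 464, a 1.39-fold higher level in replicate 1 (1.24 to 1.57). Chrm3, the main receptor for contraction of airway smooth muscle (chromosome 13, 9875486 to 10360847, minus strand), had 1.64 and 1.63 TPM on 183 and 201 counts. Its ratio of counts was 1.32 (1.07 to 1.62) although the levels in TPM were nearly equal. Chrm1, known from neurons and glands (chromosome 19, 8663789 to 8683587, plus strand), had 0.78 and 1.56 TPM on 114 and 196 counts. Chrm1 was 2.06-fold higher in replicate 2 (1.63 to 2.62). Chrm2 led the family in both libraries, 2.40-fold and 1.479-fold above Chrm3.

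Chrm1 was the 1 gene of the 9 to pass 2-fold, and its interval reaches below 2. Of all genes that reached the count minimum, 2.26% passed 2-fold with the higher value in replicate 2, 4.57% with the higher value in replicate 1, where none of the 9 passed, and 6.83% in either direction. The log2 ratio of 1.04 became 0.91 with library size scaling, 0.92 on TPM + 0.1 and 0.97 on FPKM + 0.1, all just under 2-fold, and 0.52 on TPM + 1. The added constants lower the ratio of a gene near 1 TPM. The counts of genes higher in replicate 1 and in replicate 2 were 672 and 332 with TMM scaling and 838 and 240 with library size scaling. The 9 genes had a median log2 ratio of 0.19, against -0.0022 over all genes that reached the count minimum. Library size scaling moved the latter to -0.14 and TPM to -0.21. Adrb1, Adrb3 and Chrm1 were higher in replicate 2 and Adra1a and Chrm2 higher in replicate 1 under every scaling tried. For Adra1b, Adra2a, Chrm3 and Grk2 the sign was positive in counts with TMM, DESeq2 or library size scaling. On TPM, which also divides by transcript length and had a median of -0.21 over all genes, it was negative. No direction is given for these genes.

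**Figure D3:**
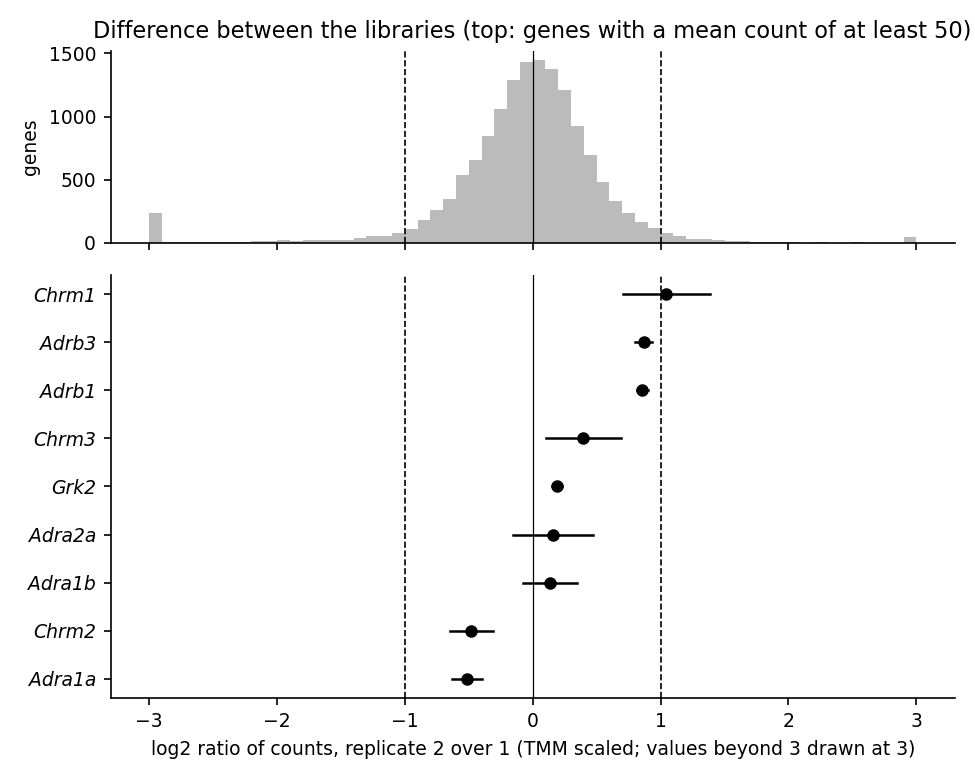
Top, number of genes by log2 ratio of counts, replicate 2 over replicate 1, for genes averaging 50 counts or more. Bottom, the 9 genes with exact 95% intervals for counting error. Dashed lines mark 2-fold. Chrm1 sits at 1.04 with an interval across the line, Adrb1 and Adrb3 sit at 0.86 and 0.87, and Chrm2 and Adra1a at -0.48 and -0.51.

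Muscle and gland markers are given for the receptors known from those tissues, which did not move alike, since Chrm2 and Adra1a were higher in replicate 1 and Adrb1 in replicate 2. Smooth muscle markers summed to 1200.4 TPM in replicate 1 and 820 TPM in replicate 2, and 0 of 6 were 2-fold apart. Cnn1 of this list was 1.17-fold higher in replicate 2 in scaled counts. Cardiac muscle markers, which mouse pulmonary veins also express, summed to 1722 and 1179 TPM, and 1 of 8 (Myl3) was 2-fold or more higher in replicate 1. Tnni3 and Myl7 of this list were 1.24-fold and 1.12-fold higher in replicate 2. Skeletal muscle markers summed to 2746 and 59.4 TPM, and 3 of the 7 (Tnnc2, Myh8 and Myh4) had 0 counts in replicate 2. Hepatocyte markers, named here for Adra1b, summed to 30.0 and 13.5 TPM, with 3 of 5 at least 2-fold higher in replicate 1. Acinar markers, named for Chrm1 as a gland receptor, summed to 6.88 and 74.3 TPM, of which the pancreatic enzyme gene Ctrb1 made up 1.35 and 54.3 TPM. Amy1 (2.2 and 1.76 TPM) and Bhlha15 (1.41 and 1.02 TPM) of that list were not higher in replicate 2 in TPM. Of 7 autonomic neuron markers only Stmn2 exceeded 1 TPM in both libraries. No marker of any list was at 0 in both libraries. The part of these cells in the receptor levels was not tested.

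The coding sequence of each muscarinic gene lies in 1 exon, as in Adrb1 and Adra2a. Chrm2-202 took all expected counts of Chrm2. Chrm3-202 held 59.7% and 82.1% of Chrm3 TPM, while Chrm3-201, a model with 1767 coding bases in 1770, held 40.3% and 4.53%. The shares of Chrm3-201 rested on 37.2 and 4.05 expected counts. Chrm3-203, at 0 and 13.4%, rested on 0 and 2.87. Chrm1-201 held 80.7% and 77.9% of Chrm1, Chrm1-202 held 13.0% and 5.77%, and Chrm1-203, annotated with 222 coding bases against 1380 in the others, held 6.31% and 16.3%. An antisense-strand neighbour, 9330158H04Rik, overlaps the start of Chrm2 and had 6.76 and 5.61 TPM. The libraries are stranded, but the sources used here do not say whether counting used strand.

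Grk2 (chromosome 19, 4286001 to 4306222, minus strand) had the smallest spread of the 3 abundant genes. It had 107 TPM in replicate 1 and 102 TPM in replicate 2, on 10593 and 10071 counts. Its ratio of counts was 1.14 (1.11 to 1.17), and 64.4% of genes differed by more. Grk2 stood 1.27-fold above Adrb1 in replicate 1 and at 0.786 of it in replicate 2. Its coding transcript Grk2-201 held 65.8% and 61.8% of TPM and Grk2-202 held 16.1% and 23.0%. The retained-intron transcripts Grk2-204 (7.30% and 7.03%) and Grk2-203 (7.58% and 6.00%) were the next. For 5 of the 6 genes that have several transcripts and 1 TPM or more in each library, the leading transcript did not differ, the exception being Adra1a. The share over all such genes was 84.8%.

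**Figure D4:**
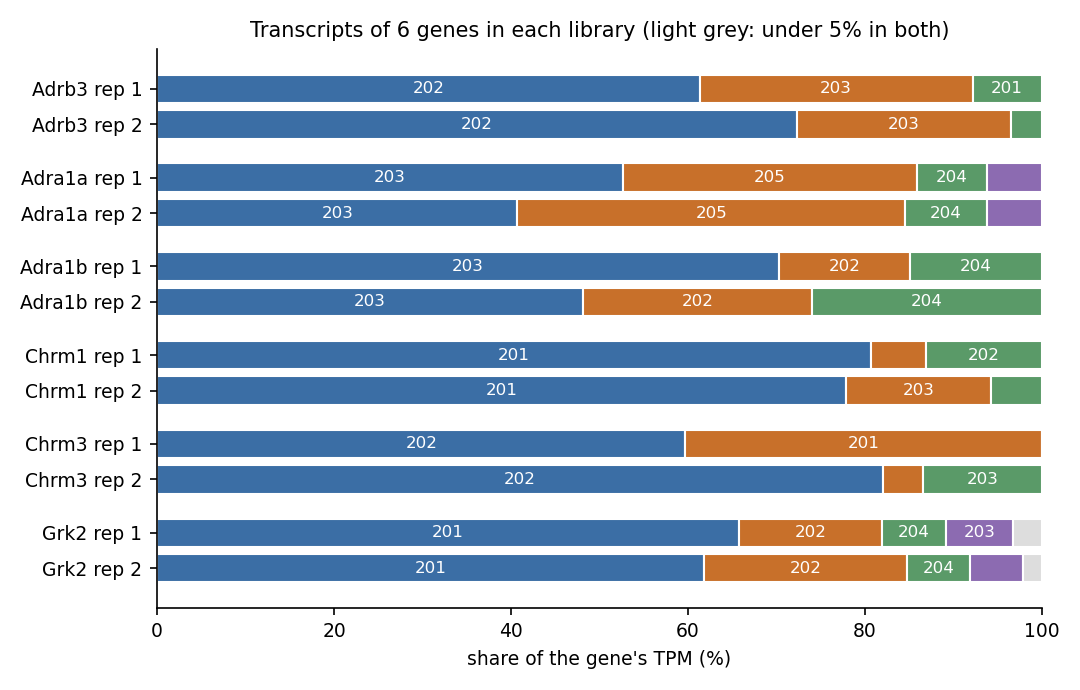
Share of each gene's TPM (%) on its transcripts in each library, for 6 genes with several transcripts in use. Numbers are transcript name suffixes, and narrow segments are unlabelled. Adrb3-202 leads in both libraries, Adra1a has 203 first in replicate 1 and 205 first in replicate 2, and Adra1b-203 holds 70.3% and 48.1%.

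The 7 pathway lists hold other receptors, signalling genes and genes of transmitter handling. Of their 66 genes, all were measured, 53 were above 1 TPM in both libraries and 56 reached the count minimum. Of these 56, 3 passed 2-fold with more in replicate 1 and 1 with more in replicate 2, beside 4.57% and 2.26% of all genes, so their share was near the background. All 9 G protein alpha subunit genes were detected and none was 2-fold apart. Gnas, the stimulatory subunit used by beta receptors, was highest at 934 and 839 TPM. Gnai2, an inhibitory subunit used by the Adra2a and Chrm2 products, had 859 and 755 TPM, and the Gq family gene Gna11 had 104 and 106 TPM. Of 9 adenylyl cyclases, 8 were detected and none was 2-fold apart. Adcy4 (71.5 and 67.6 TPM), Adcy7 (49.3 and 47.8 TPM) and Adcy6 (39.7 and 33.0 TPM) led this list. The median log2 ratios of these lists were 0.11 and 0.19.

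Genes of receptor shutdown and cyclic AMP breakdown were within 2-fold where they reached the count minimum. Among 7 other receptor kinases and arrestins, 6 were detected and the visual kinase gene Grk1 had no counts. Arrb1 (143 and 122 TPM) exceeded Arrb2 (73.7 and 46.4 TPM) among the arrestins, and Grk6 led the kinases at 40.7 and 34.3 TPM, below Grk2. All 12 genes of cyclic AMP breakdown and protein kinase A were detected, led by the regulatory subunit gene Prkar1a (114 and 103 TPM), the catalytic subunit gene Prkaca (70.3 and 52.6 TPM) and Prkar2a (23.1 and 20.8 TPM). The median log2 ratios were -0.11 and 0.08.

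The calcium branch held the 3 genes that passed 2-fold with more in replicate 1, all regulators of G protein signalling, which shorten signals through Gq or Gi. Rgs2 had 20.3 and 5.70 TPM on 1771 and 503 counts, a 2.94-fold difference (2.66 to 3.25). Rgs4 had 5.24 and 2.00 TPM on 517 and 193 counts (2.23-fold, 1.89 to 2.65). Rgs5, also a pericyte gene, had 4.95 and 1.82 TPM on 649 and 250 counts (2.17-fold, 1.87 to 2.52). The other 7 of 10 genes in this list were within 2-fold, with Plcb3 (67.1 and 62.1 TPM), Itpr3 (19.5 and 20.95 TPM) and Plcb4 (17.7 and 14.4 TPM) highest. The 6 pericyte markers summed to 432 and 366 TPM, with 0 of 6 2-fold apart. The median log2 ratio of this pericyte list in scaled counts was 0.056. Its members did not move alike, since Postn had 79.0 and 41.9 TPM and Cox4i2 had 75.1 and 83.9 TPM. Smooth muscle markers are given above. The part of these cells in the Rgs differences was not tested.

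**Figure D5:**
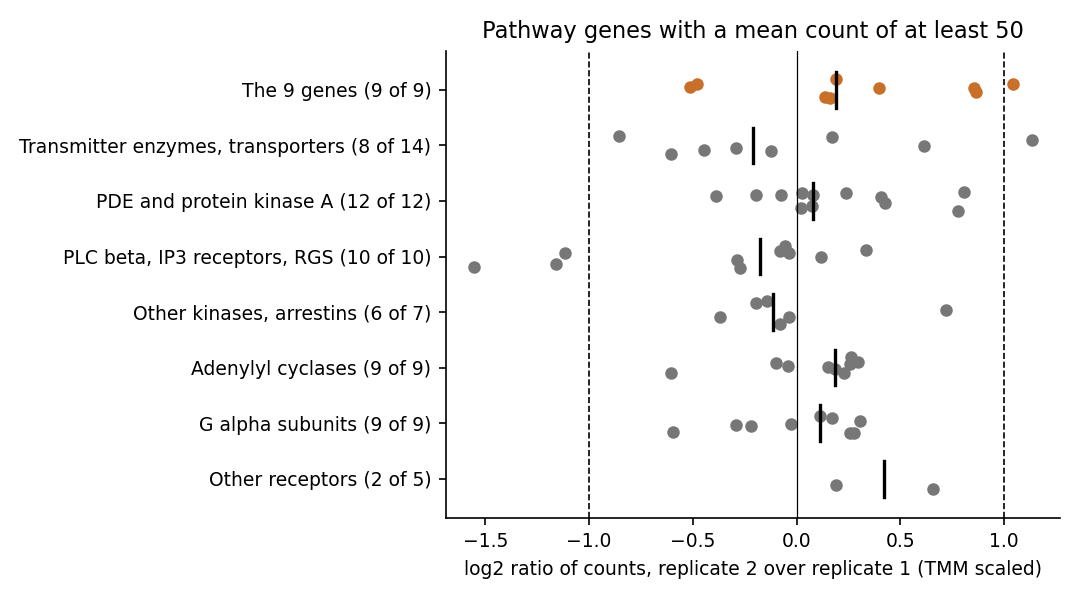
Log2 ratio of counts, replicate 2 over replicate 1, for each pathway gene averaging 50 counts or more (grey) and for the 9 genes (orange), with medians as vertical bars and 2-fold as dashed lines. Labels give how many of each list are drawn. Rgs2, Rgs4 and Rgs5 lie left of the lines, and Chrm1 and Pnmt lie right of them.

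Of 5 other genes of these receptor families, only Adra1d, another Gq-coupled alpha receptor gene, was above 1 TPM in both libraries, at 5.24 and 7.07 TPM. That level is near that of Adra1b. Adra2b had 0.45 and 0.44 TPM and Chrm4 had 0.11 and 0.09 TPM. Among genes of transmitter handling, the monoamine oxidase gene Maob had 14.6 and 10.03 TPM and the noradrenaline transporter gene Slc6a2 had 9.70 and 12.9 TPM. Of the 14 genes, 7 were detected. Pnmt, which converts noradrenaline to adrenaline, had 1.73 and 3.24 TPM on 59 and 108 counts and was the 1 gene to pass 2-fold with more in replicate 2 (2.19-fold, 1.58 to 3.07). That call was lost with library size scaling.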

How the data were processed

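Both libraries are polyadenylated lung RNA, 1 file set each. The deposited expected counts are estimated fragments per gene or transcript, not normalized. The authors also deposited TPM and FPKM, in which counts are divided by transcript length and total. Transcript shares, as percent of the gene's TPM, and TPM intervals of unstated level are likewise the authors'. Alignment was to mm10 and quantification used GENCODE M4, as the file lists deposited with the data say. The aligner and quantifier were not stated there. Contig and junction lists on mm9 were not used.

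Symbols, coordinates and transcript models came from GENCODE M21, also mm10, in which 42462 of 43346 gene IDs had a symbol. Adrb1 and Adra2a have longer models there than the lengths quantified. Rows naming no gene and no spike-in (0 and 2 counts) were dropped. Promoters came from RefSeq (GRCm38.p6) and matched 5 of the 9 genes. Expected counts were rounded, and a gene was 2-fold apart when counts over TMM-scaled library sizes (edgeR 4.0.16, R 4.3.3) differed 2-fold with a mean count of at least 50. DESeq2 1.42.0 size factors, library size, TPM, FPKM and other minimums were alternatives. Other steps used scipy 1.17.1, pandas 2.3.3, numpy 2.4.6 and Python 3.11.15. Named genes are the 9 members, the 3 genes of highest mean TPM in each pathway list and those 2-fold apart; any other was picked with its values in view. Results of some listed genes are not reported here. The members and lists were chosen with earlier results of these data known.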

Additional observations from a re-analysis of the deposited data

How the results depend on the processing

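With 1 group of 2 libraries every difference compares these libraries only, and intervals cover counting error only. The count of 8 genes above 1 TPM in both libraries was 9 at 0.5 TPM, 9 at 0.1 TPM, 8 at 1 FPKM and 8 by the lower bound of the deposited interval, and leaving out a replicate gave 8 to 9. The 1 gene 2-fold higher in replicate 2, Chrm1, remained with DESeq2 size factors, other count minimums and posterior mean counts, and the count was 0 with library size scaling, TPM plus 0.1, TPM plus 1 and FPKM plus 0.1. No gene was 2-fold higher in replicate 1 under any of these. The 5 genes with the same main transcript became 2 of 3 when only genes above 5 TPM were kept, since fewer genes were compared, and 6 of 6 by share of expected counts. The log2 ratio of Adra1b was 0.14 with TMM and -0.28 with TPM plus 0.1, that of Chrm3 0.40 and -0.0083, that of Adra2a 0.16 and -0.061 at the lowest, and that of Grk2 0.19 and -0.060 at the lowest. Counts of 114 to 201 for Chrm1, Chrm3 and Adra2a limit precision most. No paired analysis was possible because there is 1 group.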

Other observations

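Some genes of transmitter handling had few counts, unlike the noradrenaline transporter gene Slc6a2 with 2054 and 2622. Th, the first enzyme of catecholamine synthesis, had 42 counts in replicate 1 and 0 in replicate 2, where 0 allows up to 3. Chat, which makes acetylcholine, had 0 and 6 counts, its vesicular transporter gene Slc18a3 had 4 and 5, and Dbh had 12 and 14. The acetylcholine-degrading enzyme genes Ache and Bche had 238 and 146 counts and 196 and 150 counts. Apart from Slc6a2, these genes were chosen after their values were seen, and Th, Chat, Slc18a3 and Dbh lay under the mean count of 50 needed for a comparison.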
